A study of Mus musculus with 32 samples.

Results

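The comparison set the striatum of 8 zQ175 mice against that of 8 Wild Type mice, which are 16 of the 32 mice in the series, chosen by the genotype label of each mouse. zQ175 mice are a knock-in model of Huntington's disease in which the mouse Htt gene carries a highly expanded CAG repeat. Every cell that uses the Htt promoter thus makes the mutant transcript. The mice were of a C57BL/6J background, came as littermates from zQ175:Msh3+/- males and Msh3+/- females, carried intact Msh3 in both groups, and were taken at 6 months of age, with 4 males and 4 females in each group. By this cross a zQ175 mouse also carried a normal Htt allele from its mother, though the genotype labels do not give the zygosity. Polyadenylated RNA of the dissected striatum was sequenced, and between 12359347 and 25030335 reads per zQ175 mouse and between 13696875 and 22983977 per wild-type mouse were counted on genes. The other 16 mice, 8 Msh3-/- and 8 zQ175:Msh3-/-, were used only for the estimate of the spread between mice and for a second measurement of the zQ175 effect.

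The striatum is built mostly of spiny projection neurons, GABAergic cells that receive cortical glutamate and midbrain dopamine and send their axons out of the striatum along a direct or an indirect pathway. Direct pathway cells carry the dopamine D1 receptor and the peptides substance P and dynorphin, and indirect pathway cells carry the dopamine D2 receptor, an adenosine receptor and enkephalin. In both, dopamine acts through cyclic AMP, and the proteins of that cascade are far more abundant here than in other brain regions. Spiny projection neurons are the cells most affected in Huntington's disease, and the fall of their identity genes is a known molecular sign of its mouse models.

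The tract that is expanded in zQ175 mice lies in coding exon 1 of Htt (ENSMUSG00000029104, chromosome 5, from 34761740 to 34912534 on the plus strand of GRCm38). The first 150 coding bases of the reference mouse transcript, at chr5:34761907-34762056, show the unexpanded mouse sequence. The mutant exon 1 differs from it in more than tract length, because the authors detect its protein with an antibody to a proline-rich region that is human-specific. Capitals mark the glutamine codons, which in the reference mouse are 7, 6 of them CAG and 1 CAA, at codons 18 to 24.
Htt coding start: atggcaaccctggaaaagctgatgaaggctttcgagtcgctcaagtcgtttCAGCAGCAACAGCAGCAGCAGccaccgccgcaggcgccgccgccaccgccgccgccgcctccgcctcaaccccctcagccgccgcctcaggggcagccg
Htt ranged from 152 to 189.7 CPM in wild-type mice (median 170) and from 129 to 147 CPM in zQ175 mice (median 137). The groups did not overlap, and the gene was lower in zQ175 (log2 fold change -0.32, SE 0.04, adjusted p = 4.76e-08). On the TPM scale its change was in the same direction but did not pass the fold threshold. The level is a sum over the alleles of the gene, and how reads of the mutant exon 1 were counted was not tested. Msh3, which encodes a mismatch repair protein and was intact in both groups, ranged from 22.9 to 27.5 CPM in wild-type mice (median 23.7) and from 22.8 to 27.4 CPM in zQ175 mice (median 24.1), with overlapping groups (log2 fold change -0.01, SE 0.06, adjusted p = 0.947).

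Some libraries stood apart by tissue outside the striatum. Ttr, the transthyretin gene that marks the choroid plexus, was at 1176 CPM (counts per 1000000 counts, after normalization for library composition) or more in 2 wild-type males and 1 zQ175 male and at 170.4 or less in the other 13 mice. Slc17a7, the vesicular glutamate transporter of cortical excitatory neurons, was at 53.5 CPM or less in 3 wild-type mice and 1 zQ175 mouse and at 136.6 or more in the other 12 mice. Without the 3 mice of high Ttr, 1915 genes were called (773 raised, 1142 lowered). Without the 4 mice of low Slc17a7, 1479 were (529 raised, 950 lowered), and with all mice 1925 were (781 raised, 1144 lowered). Counts without these mice are given beside some of the lists. These mice were chosen after the data were seen.

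A gene was called raised or lowered in zQ175 when its adjusted p was under 0.05 and its fold change at least 1.2 in edgeR's quasi-likelihood test. Of 16610 genes tested, 4.7% (781) were raised and 6.89% (1144) were lowered, 11.6% (1925) in all, and the median log2 fold change of all tested genes was 0.01. Raised genes were 40.6% of the calls, and 59.9% when the deposited TPM values were tested with limma in place of the counts. Those TPM values did not have the normalization for library composition that the counts had. The changes were mostly small, with a median log2 fold change of 0.41 among raised and -0.45 among lowered genes, and larger ones were mostly decreases, with 99 genes lowered and 31 raised at least 2-fold. In 4.61% of tested genes every zQ175 mouse lay below every wild-type mouse, and in 2.02% every zQ175 mouse lay above. Of the 1925 called genes, 58 belong to the 18 marker lists of cell classes and neighbouring tissues, and 55 of these were lowered. The striatum was bulk tissue, in which fewer cells of a type and less RNA per cell cannot be told apart.

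The clearest decrease was that of the spiny projection neuron markers shared by both pathways. All 19 markers tested were lowered, against 6.89% of all tested genes, and in 18 of them every zQ175 mouse lay below every wild-type mouse. Their median log2 fold change was -0.65, between -0.79 and -0.57 over the alternative settings, and their summed level fell from between 15927 and 19830 CPM in wild-type mice to between 9444 and 12015 CPM in zQ175 mice. All 19 were also lowered without the mice of high Ttr (median -0.71) and without those of low Slc17a7 (median -0.62).

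Scn4b (chromosome 9, from 45138395 to 45154152), which encodes the sodium channel subunit β4, showed the largest change of the list. Scn4b ranged from 1265 to 1757 CPM in wild-type mice (median 1551) and from 470.3 to 634 CPM in zQ175 mice (median 525). The ranges were far apart, and the level fell 2.88-fold (log2 fold change -1.53, SE 0.06, adjusted p = 2.03e-19). Pde10a, the phosphodiesterase that degrades cyclic AMP and cyclic GMP in these cells, ranged from 1713 to 2117 CPM in wild-type mice (median 1938) and from 746 to 976 CPM in zQ175 mice (median 848), with no overlap (log2 fold change -1.18, SE 0.07, adjusted p = 2.84e-15). Arpp21, a phosphoprotein of the cyclic AMP cascade, ranged from 1202 to 1519 CPM in wild-type mice (median 1374) and from 601 to 755 CPM in zQ175 mice (median 697). Here too the lowest wild-type mouse was above the highest zQ175 mouse (log2 fold change -1.01, SE 0.05, adjusted p = 1.25e-16).

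Other genes of the dopamine and cyclic AMP cascade are given singly. Adcy5, the main adenylyl cyclase of the striatum, ranged from 1647 to 2082 CPM in wild-type mice (median 1878) and from 931 to 1156 CPM in zQ175 mice (median 1038), without overlap (log2 fold change -0.85, SE 0.05, adjusted p = 4.68e-15), and was the only called member of the 9 adenylyl cyclases tested. Ppp1r1b, which encodes DARPP-32, the phosphatase inhibitor that integrates dopamine and glutamate signals, ranged from 2061 to 2642 CPM in wild-type mice (median 2378) and from 1162 to 1601 CPM in zQ175 mice (median 1332). The groups were again apart (log2 fold change -0.82, SE 0.07, adjusted p = 7.39e-12). Rgs9, which speeds the shutdown of G protein signals at dopamine and opioid receptors, ranged from 511 to 649 CPM in wild-type mice (median 599.6) and from 298 to 375 CPM in zQ175 mice (median 316), also without overlap (log2 fold change -0.86, SE 0.07, adjusted p = 5.22e-12).

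Markers of the indirect pathway were lowered in most cases and those of the direct pathway in fewer, a difference between lists that was not tested. Of 9 indirect pathway markers tested, 6 were lowered (66.7%), with a median log2 fold change of -0.79. Of 10 direct pathway markers, 4 were lowered (40%), with a median of -0.10 (-0.22 to -0.004 over the alternatives), against 6.89% of all tested genes. Summed levels fell without overlap in both lists. The direct pathway sum was 694 to 813 CPM in wild-type and 522 to 653 CPM in zQ175 mice. That of the indirect pathway was 1974 to 2347 and 999 to 1245 CPM. Without the mice of high Ttr, 6 indirect and 5 direct pathway markers were lowered, and without those of low Slc17a7, 6 indirect and 3 direct. Penk (chromosome 4, from 4133531 to 4138819), the enkephalin precursor, ranged from 994 to 1248 CPM in wild-type mice (median 1146) and from 388 to 507 CPM in zQ175 mice (median 454). No zQ175 mouse reached the lowest wild-type mouse, and the fall was 2.5-fold (log2 fold change -1.32, SE 0.06, adjusted p = 2.03e-19). Adora2a, the adenosine receptor of these cells, ranged from 422 to 508 CPM in wild-type mice (median 451) and from 197 to 254 CPM in zQ175 mice (median 219.5), without overlap (log2 fold change -1.03, SE 0.05, adjusted p = 2.34e-17). Drd2, the dopamine D2 receptor, ranged from 252 to 332 CPM in wild-type mice (median 298) and from 151 to 207 CPM in zQ175 mice (median 168). It, too, was lower in each zQ175 mouse than in any wild-type mouse (log2 fold change -0.79, SE 0.07, adjusted p = 3.27e-11).

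Among direct pathway markers, the receptors fell and the substance P precursor did not pass the test. Drd1, the dopamine D1 receptor, ranged from 216 to 292 CPM in wild-type mice (median 243) and from 128 to 151 CPM in zQ175 mice (median 142), with the groups apart (log2 fold change -0.81, SE 0.06, adjusted p = 2.82e-12). Chrm4, the muscarinic M4 receptor that opposes D1 signalling, ranged from 40.5 to 60.1 CPM in wild-type mice (median 51.7) and from 27.5 to 33.9 CPM in zQ175 mice (median 32.04), again apart (log2 fold change -0.74, SE 0.07, adjusted p = 1.03e-10). Pdyn, the dynorphin precursor, had medians of 122 and 98.7 CPM with overlapping groups and a smaller decrease (log2 fold change -0.32, SE 0.08, adjusted p = 0.00137). Tac1, the precursor of substance P, ranged from 151 to 175 CPM in wild-type mice (median 162) and from 144 to 188 CPM in zQ175 mice (median 169.9). The groups overlapped throughout and the difference did not pass the test (log2 fold change 0.06, SE 0.05, adjusted p = 0.422). The difference between the Drd1 and Tac1 changes was not tested.

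**Figure D1:**
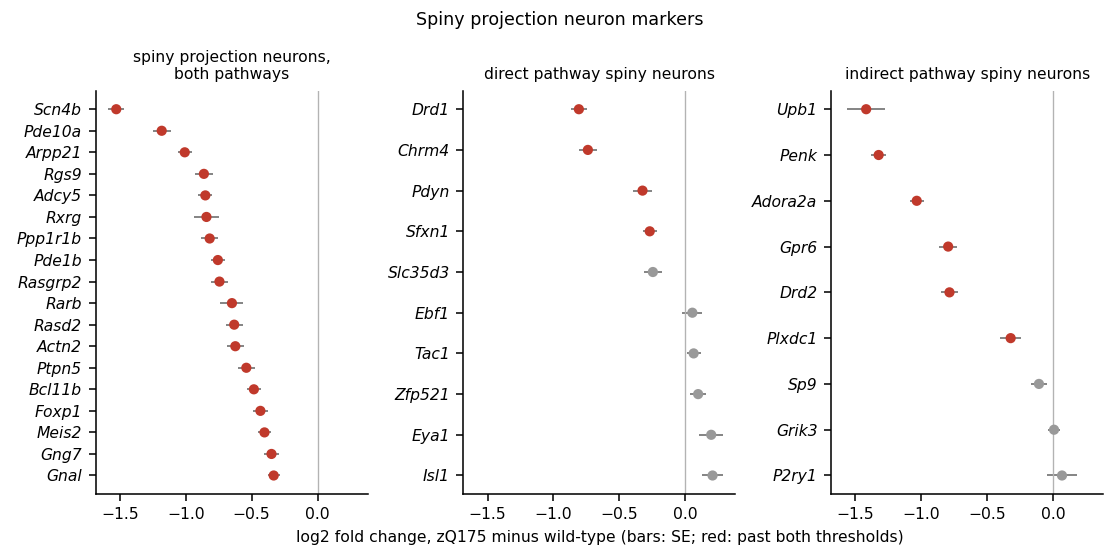
Log2 fold changes (horizontal axis, zQ175 minus wild-type) of the markers of both spiny neuron pathways, the direct pathway and the indirect pathway, with standard errors as bars and genes past both thresholds in red. The 18 shared markers drawn, of 19 tested, all lie below 0, while 5 of the 10 direct pathway markers lie at or above 0.

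Striatal neurons of other kinds were measured by shorter lists, beside 6.89% lowered and 4.7% raised of all tested genes. Of the striosome markers 1 of 5 was lowered, Kremen1, a co-receptor in Wnt signalling (log2 fold change -0.39, SE 0.06, adjusted p = 4.88e-06), whereas Oprm1, the µ-opioid receptor that defines striosomes, ranged from 2.25 to 3.55 CPM in wild-type mice (median 2.66) and from 1.80 to 3.28 CPM in zQ175 mice (median 2.70), with overlapping groups (log2 fold change -0.03, SE 0.14, adjusted p = 0.915). Of the matrix markers 2 of 5 were lowered, and 1 of them without the mice of low Slc17a7. Id4, an inhibitor of bHLH transcription factors, ranged from 228 to 312 CPM in wild-type mice (median 252) and from 136 to 185 CPM in zQ175 mice (median 156), without overlap (log2 fold change -0.68, SE 0.07, adjusted p = 2.34e-09). Of the 6 markers of eccentric spiny neurons only Col11a1, a fibrillar collagen, was called, and it was raised (log2 fold change 0.85, SE 0.15, adjusted p = 6.5e-05). All 7 cholinergic interneuron markers had a log2 fold change below 0, with a median of -0.25, but 2 were called, 1 without the mice of high Ttr and none without those of low Slc17a7. Of 13 GABAergic interneuron markers 1 was lowered, and Pvalb, the parvalbumin gene, had medians of 35.6 and 39.1 CPM (log2 fold change 0.11, SE 0.22, adjusted p = 0.756).

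Of 16 endothelial markers 8 were lowered, against 6.89% of all tested genes, with 5 without the mice of high Ttr, 7 without those of low Slc17a7, 5 on the TPM scale, 6 in males only and 2 in females only. All 16 endothelial markers had a log2 fold change below 0 (median -0.27). Tek, the angiopoietin receptor, ranged from 13.7 to 17.4 CPM in wild-type mice (median 16.6) and from 9.64 to 13.6 CPM in zQ175 mice (median 12.8). The lowest wild-type mouse was just above the highest zQ175 mouse (log2 fold change -0.38, SE 0.07, adjusted p = 7.74e-05). Flt1, a receptor for vascular endothelial growth factor, was likewise apart, with medians of 75.5 and 60.8 CPM (log2 fold change -0.33, SE 0.07, adjusted p = 0.000888), while Cldn5, the tight junction protein of the blood-brain barrier, overlapped between groups at medians of 38.95 and 33.3 CPM (log2 fold change -0.26, SE 0.14, adjusted p = 0.17). Of 11 mural and fibroblast markers 3 were lowered (27.3%), against 2 without the mice of high Ttr and in females only, and 1 without those of low Slc17a7, in males only and on the TPM scale. Tagln, an actin-binding protein of smooth muscle, was among the 3 (log2 fold change -0.70, SE 0.10, adjusted p = 2.37e-06).

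Of 18 astrocyte markers 3 were lowered (16.7%), against 6.89% of all tested genes, with 2 without the mice of low Slc17a7 and 1 on the TPM scale. The summed level of the list was between 4747 and 5034 CPM in wild-type and between 4083 and 4347 CPM in zQ175 mice, without overlap. Slc4a4, the sodium bicarbonate cotransporter, ranged from 279 to 328 CPM in wild-type mice (median 309.7) and from 219.9 to 255 CPM in zQ175 mice (median 230.4), also without overlap (log2 fold change -0.39, SE 0.04, adjusted p = 9.6e-10). Slc1a2, the main glutamate transporter of astrocytes, ranged from 2598 to 2923 CPM in wild-type mice (median 2836) and from 2106 to 2436 CPM in zQ175 mice (median 2289). It gave most of the reads of the list, and its decrease passed the thresholds on counts (log2 fold change -0.30, SE 0.04, adjusted p = 2.69e-07) but not on TPM. Aqp4, the water channel of astrocyte endfeet, had medians of 87.9 and 82.99 CPM (log2 fold change -0.08, SE 0.06, adjusted p = 0.376), and Gfap, the filament protein that rises in reactive astrocytes, had medians of 121 and 126 CPM (log2 fold change 0.07, SE 0.13, adjusted p = 0.756). Both overlapped between groups. Of 10 reactive astrocyte markers 1 was raised.

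Of 16 oligodendrocyte markers 3 were lowered (18.8%), against 6.89% of all tested genes, with 1 in each sex alone. Of 9 markers of their precursors 1 was raised and 1 lowered, and of 20 microglial markers 1 was lowered. Mbp, myelin basic protein, had medians of 4677 and 4440.5 CPM (log2 fold change -0.02, SE 0.10, adjusted p = 0.884). Mal, a myelin membrane protein, was lowered (log2 fold change -0.32, SE 0.08, adjusted p = 0.00255). Cx3cr1, the fractalkine receptor of microglia, ranged from 58.6 to 72.9 CPM in wild-type mice (median 62.6) and from 54.6 to 60.7 CPM in zQ175 mice (median 57.2), a difference with an adjusted p under 0.05 but below the fold threshold (log2 fold change -0.17, SE 0.04, adjusted p = 0.0022). None of the 7 ependymal or 7 choroid plexus markers was called. Of 8 cortical markers 1 was raised, with a median log2 fold change of 0.54 that came to 0.28, with none called, without the 4 mice of low Slc17a7. In females only 4 of the 8 cortical markers were raised, with a median of 1.19, and in males only none was, with a median of 0.08. The part of cortical tissue in the differences of other genes was not tested.

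**Figure D2:**
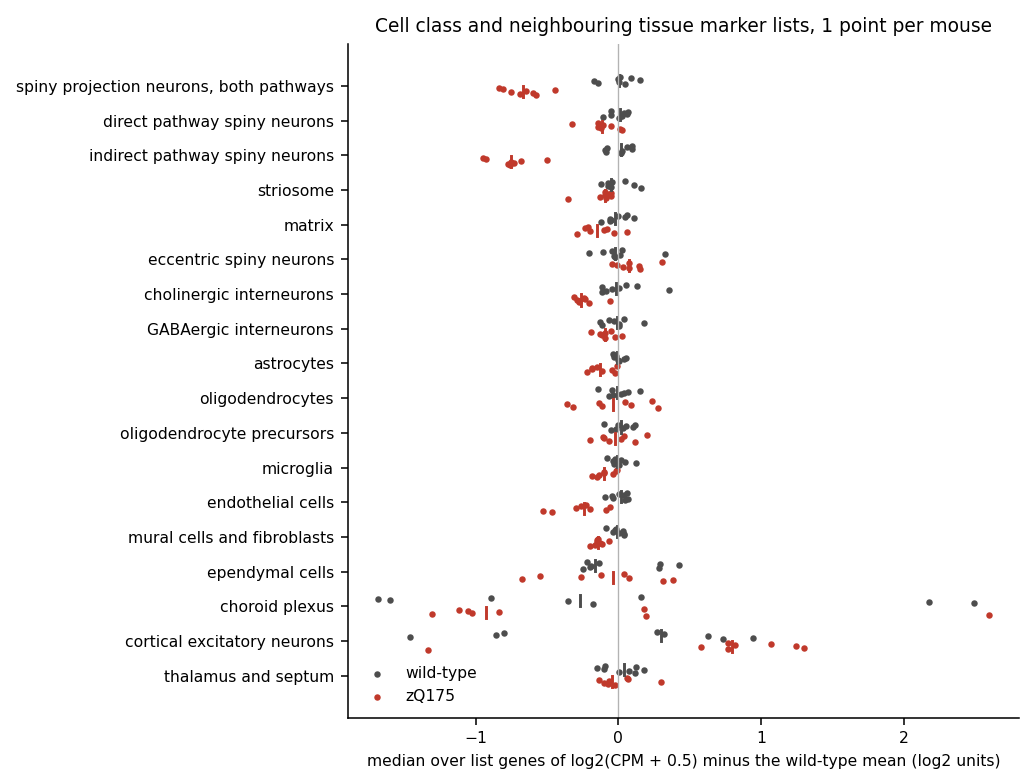
Each point is 1 mouse, placed by the median over a marker list of log2(CPM + 0.5) minus the wild-type mean (horizontal axis, log2 units), with wild-type mice in grey, zQ175 mice in red and bars at the group medians. The shared spiny neuron and indirect pathway lists separate the groups, and the choroid plexus and cortical lists spread widely within both.

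Transcription factors that maintain spiny neurons were lowered in 6 of 14 cases (42.9%) and raised in 1 (7.14%), against 6.89% and 4.7% of all tested genes. Their median log2 fold change was -0.07, and 8 of the 14 lay below 0. Bcl11b, Rxrg and Rarb are also among the shared spiny neuron markers counted above, so these lists are not independent. Without the mice of high Ttr or without those of low Slc17a7, 6 were also lowered. Bcl11b, the zinc finger factor CTIP2 that spiny neurons need to develop, ranged from 401 to 513 CPM in wild-type mice (median 445) and from 299 to 347 CPM in zQ175 mice (median 323). Every zQ175 mouse was below every wild-type mouse (log2 fold change -0.48, SE 0.05, adjusted p = 5.24e-09). Rxrg and Rarb, nuclear receptors for retinoids, fell with it, Rxrg from a median of 162 to 86.9 CPM (log2 fold change -0.84, SE 0.09, adjusted p = 2.11e-08) and Rarb from 103 to 66.8 CPM (log2 fold change -0.65, SE 0.09, adjusted p = 8.26e-07), each without overlap. Foxo1, a forkhead factor, was also apart between groups (log2 fold change -0.62, SE 0.09, adjusted p = 5.58e-06).

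Among families with 10 or more tested genes, the calcium and calmodulin dependent kinases and the calcium release channels and pumps held the highest shares of lowered genes. Of 13 calcium and calmodulin dependent kinases and their regulators 7 were lowered and none raised (median -0.33), and of 13 calcium release channels and pumps 6 were lowered and none raised (median -0.20), against 6.89% of all tested genes. Voltage-gated calcium channel genes were lowered in 7 of 24 cases (29.2%), 8 without the mice of high Ttr and 5 without those of low Slc17a7. Their median log2 fold change was -0.06 and changed sign over the alternatives (-0.10 to 0.02). Ryr1 (chromosome 7, from 29003344 to 29125179), a ryanodine receptor that releases calcium from the endoplasmic reticulum, ranged from 89.1 to 158 CPM in wild-type mice (median 122) and from 22.1 to 32.7 CPM in zQ175 mice (median 28.9). The highest zQ175 mouse was far below the lowest wild-type mouse, a 4.18-fold decrease (log2 fold change -2.06, SE 0.10, adjusted p = 4.83e-16). Itpr1, the inositol trisphosphate receptor that opens the same store, ranged from 1350.5 to 1689 CPM in wild-type mice (median 1469) and from 816 to 1025 CPM in zQ175 mice (median 900.1), without overlap (log2 fold change -0.71, SE 0.05, adjusted p = 6.22e-13). Atp2b1, a pump that carries calcium out through the plasma membrane, fell from a median of 1601 to 975 CPM (log2 fold change -0.73, SE 0.05, adjusted p = 8.2e-15). Camk4, a nuclear calmodulin kinase, was the most lowered kinase, with a median of 572 CPM in wild-type and 371 CPM in zQ175 mice (log2 fold change -0.67, SE 0.05, adjusted p = 4.17e-14). Camk2n1, an inhibitor of CaMKII, fell from 1907 to 1286 CPM (log2 fold change -0.52, SE 0.05, adjusted p = 1.19e-10). Camkk2, the kinase upstream of Camk4, fell from 319 to 225 CPM (log2 fold change -0.48, SE 0.06, adjusted p = 6.56e-08). For none of these genes did the groups overlap.

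The proteins of G protein signalling include receptors, G protein subunits and the regulators that end the signal. Of 27 heterotrimeric G protein subunits 3 were lowered (11.1%) and 2 raised (7.41%), against 6.89% and 4.7% of all tested genes (median 0.08). Of 7 metabotropic glutamate receptors 4 were lowered (median -0.40). Grm5, which signals through Itpr1, ranged from 396 to 473 CPM in wild-type mice (median 414) and from 259 to 338 CPM in zQ175 mice (median 289), without overlap (log2 fold change -0.54, SE 0.04, adjusted p = 4.41e-12). Grm4, which inhibits adenylyl cyclase, fell from a median of 99.3 to 67.9 CPM (log2 fold change -0.52, SE 0.07, adjusted p = 2.27e-07), and its groups were apart as well. Of 17 regulators of G protein signalling 6 were lowered and 1 raised. Rgs14 ranged from 62.1 to 81.9 CPM in wild-type mice (median 72.6) and from 32.97 to 40.8 CPM in zQ175 mice (median 34.9), and its groups were far apart (log2 fold change -1.02, SE 0.06, adjusted p = 5.14e-16). Rgs4, which restrains signalling from glutamate and muscarinic receptors, fell from a median of 755 to 383 CPM (log2 fold change -0.96, SE 0.07, adjusted p = 6.49e-13), whereas Rgs19 rose from 7.56 to 10.97 CPM (log2 fold change 0.55, SE 0.09, adjusted p = 7.78e-06). Of 19 phosphodiesterases 5 were lowered and 2 raised, and beside Pde10a the largest decreases were those of Pde1b, which calcium and calmodulin activate (log2 fold change -0.76, SE 0.06, adjusted p = 3.64e-13), and Pde7b (log2 fold change -0.63, SE 0.06, adjusted p = 2.86e-11).

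Receptors for transmitters of other kinds moved both ways. Cnr1, the cannabinoid receptor on the axon terminals of spiny neurons, ranged from 336 to 434 CPM in wild-type mice (median 382) and from 134 to 218 CPM in zQ175 mice (median 174), without overlap (log2 fold change -1.16, SE 0.09, adjusted p = 9.79e-12). Faah, the hydrolase that degrades the cannabinoid anandamide, ranged from 18.3 to 29.4 CPM in wild-type mice (median 22.7) and from 31.6 to 41.7 CPM in zQ175 mice (median 37.03). It was higher in every zQ175 mouse than in any wild-type mouse (log2 fold change 0.65, SE 0.12, adjusted p = 7.45e-05), though the rise did not pass the test in males alone, and the other 6 endocannabinoid genes tested were not called. Of the 4 opioid receptors 2 were lowered and 1 raised. The δ receptor gene Oprd1 was among the lowered (log2 fold change -0.46, SE 0.07, adjusted p = 1.74e-06) and the nociceptin receptor gene Oprl1 was raised (log2 fold change 0.34, SE 0.07, adjusted p = 0.000122), each with overlapping groups. Of 30 monoamine and muscarinic receptors 7 were lowered (23.3%) and 2 raised (6.67%), against 6.89% and 4.7% of all tested genes. Htr4, a serotonin receptor that raises cyclic AMP, was among the lowered (log2 fold change -0.87, SE 0.16, adjusted p = 8.74e-05).

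Potassium channels, which set the low resting potential of spiny neurons, were lowered in 15 of 71 cases (21.1%) and raised in 4 (5.63%). Of all tested genes 6.89% were lowered and 4.7% raised. The median log2 fold change of the list was -0.03 and changed sign over the alternatives (-0.08 to 0.02), and 38 of the 71 genes lay below 0. Without the mice of high Ttr the counts were 15 and 3, without those of low Slc17a7 they were 11 and 3, and on the TPM scale 9 of 76 were lowered and 5 raised. Kcnj4, an inward rectifier, ranged from 188 to 206 CPM in wild-type mice (median 195) and from 126 to 157 CPM in zQ175 mice (median 140). The groups were apart (log2 fold change -0.48, SE 0.04, adjusted p = 3.15e-12). Kcnk2, a leak channel, fell from a median of 191 to 129 CPM (log2 fold change -0.57, SE 0.06, adjusted p = 4.88e-10), and Kcnh4, a channel of the ether-a-go-go family, from 52.2 to 27.2 CPM (log2 fold change -0.90, SE 0.09, adjusted p = 1.13e-09). Of 7 accessory subunits of the Kcnip and Kcnab groups, 2 were lowered. Kcnab1 fell from a median of 440 to 265 CPM (log2 fold change -0.75, SE 0.05, adjusted p = 8.2e-15), and Kcnip2 from 320.1 to 204 CPM (log2 fold change -0.58, SE 0.05, adjusted p = 9.02e-11). These 4 genes showed no overlap. Of 14 subunits of GABA-A receptors 2 were lowered, and Gabrd, the δ subunit of receptors outside synapses, ranged from 119 to 144 CPM in wild-type mice (median 130.1) and from 69 to 87.5 CPM in zQ175 mice (median 80.1), without overlap (log2 fold change -0.69, SE 0.05, adjusted p = 4.37e-14).

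**Figure D3:**
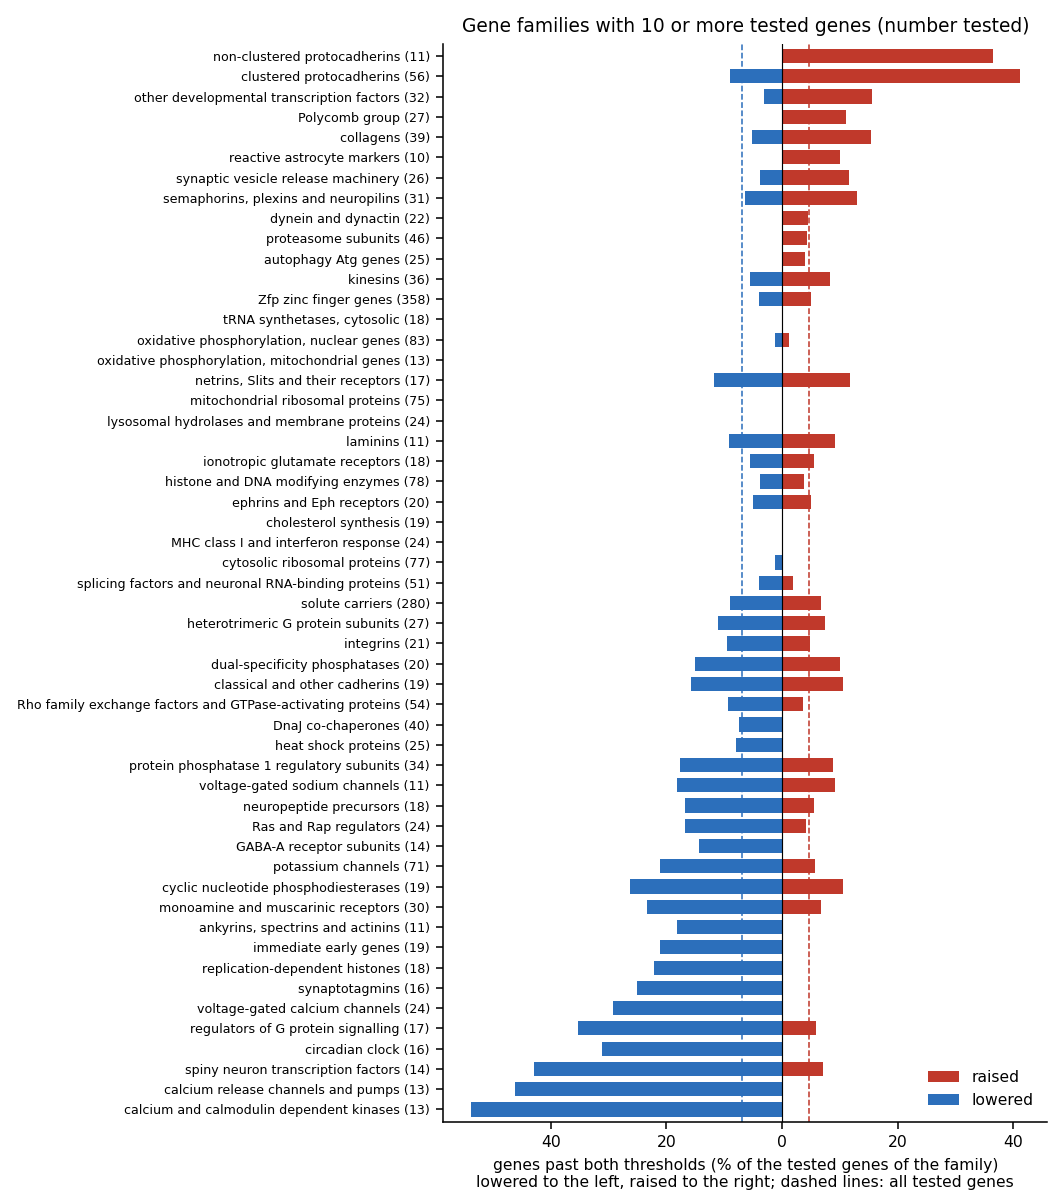
Share of the tested genes of each family, with the number tested in brackets, that were lowered (blue, to the left) or raised (red, to the right) in zQ175 mice, in percent, beside dashed lines for all tested genes (6.89% lowered, 4.7% raised). The calcium and calmodulin dependent kinases and the calcium release channels and pumps lie at the lowered end and the protocadherins at the raised end.

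Genes that neuronal activity or the time of day drive were lowered in part. Of 19 immediate early genes 4 were lowered (21.1%) and none raised (median -0.27), against 6.89% and 4.7% of all tested genes. Lowered were 3 without the mice of high Ttr, 5 without those of low Slc17a7 and 2 in males only. Homer1, a scaffold of metabotropic glutamate receptors, ranged from 255 to 387 CPM in wild-type mice (median 317) and from 137 to 209 CPM in zQ175 mice (median 174), without overlap (log2 fold change -0.84, SE 0.09, adjusted p = 2.55e-08). The counts are per gene, so transcripts of Homer1 that activity drives were not told apart from its others. Fos, the gene most used as a sign of recent activity, ranged from 5.85 to 23.6 CPM in wild-type mice (median 12.4) and from 7.46 to 33.4 CPM in zQ175 mice (median 11.4), with wide overlap (log2 fold change 0.05, SE 0.40, adjusted p = 0.947), and Arc had medians of 125 and 102 CPM (log2 fold change -0.27, SE 0.33, adjusted p = 0.601). Of 16 circadian clock genes 5 were lowered and none raised. Npas2, a partner of the clock protein BMAL1 in the forebrain, ranged from 64.6 to 79.7 CPM in wild-type mice (median 71.1) and from 41.1 to 48.5 CPM in zQ175 mice (median 44.5), and the groups did not overlap (log2 fold change -0.68, SE 0.06, adjusted p = 8.29e-12). Hlf, a clock output factor, was likewise apart (log2 fold change -0.44, SE 0.07, adjusted p = 8.49e-06), and Per2, a core repressor of the clock, ranged from 21.5 to 69.9 CPM in wild-type mice (median 42.02) and from 23.3 to 51.6 CPM in zQ175 mice (median 37.3), with overlap (log2 fold change -0.21, SE 0.18, adjusted p = 0.441). The time of day of dissection is not given in the sources used here, and its part was not tested.

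Among families with 10 or more tested genes, the protocadherins held the highest share of raised genes. Clustered protocadherins are cadherin-like adhesion proteins whose variable exons, each with its own promoter, are chosen in different combinations in single neurons and give them a surface identity. Of 56 tested, 23 were raised and 5 lowered, against 4.7% and 6.89% of all tested genes, and 21 were raised without the mice of high Ttr or without those of low Slc17a7. Their summed level overlapped between groups, with medians of 1351 CPM in wild-type and 1381 CPM in zQ175 mice. The rise lay mostly in the β cluster, where 14 of 21 genes were raised and 1, Pcdhb8, was lowered. Pcdhb9 ranged from 12.4 to 14 CPM in wild-type mice (median 13.2) and from 19.5 to 22.2 CPM in zQ175 mice (median 20.8). Its groups were narrow and apart (log2 fold change 0.66, SE 0.06, adjusted p = 1.4e-11). Pcdhb3 (log2 fold change 0.76, SE 0.09, adjusted p = 3.04e-08) and Pcdhb12 (log2 fold change 0.75, SE 0.09, adjusted p = 3.36e-08) showed rises of similar size, without overlap.

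In the α cluster 5 of 14 genes were raised and none lowered, and the largest change was that of Pcdha9, whose groups overlapped (log2 fold change 0.75, SE 0.13, adjusted p = 4.91e-05). The γ cluster held both directions in turn along the chromosome. Pcdhga1, Pcdhga2, Pcdhgb1 and Pcdhga4, toward its start, were raised, and the 4 adjacent genes Pcdhga6, Pcdhga7, Pcdhgb4 and Pcdhga8 were lowered, with log2 fold changes from -0.45 to -0.36. Of these 8, only Pcdhga8 and Pcdhga6 were among the genes chosen by rule, and the others were chosen after their values were seen. Transcripts of the α and of the γ cluster share their last exons, and the variable exons of neighbours are alike, so reads of single genes may have been assigned to neighbours and the values of single genes are uncertain. Of 11 non-clustered protocadherins 4 were raised and none lowered, and Pcdh20, which lies outside the clusters, ranged from 7.56 to 10.8 CPM in wild-type mice (median 9.21) and from 16.02 to 21.1 CPM in zQ175 mice (median 17.8), without overlap (log2 fold change 0.98, SE 0.08, adjusted p = 1.12e-12).

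**Figure D4:**
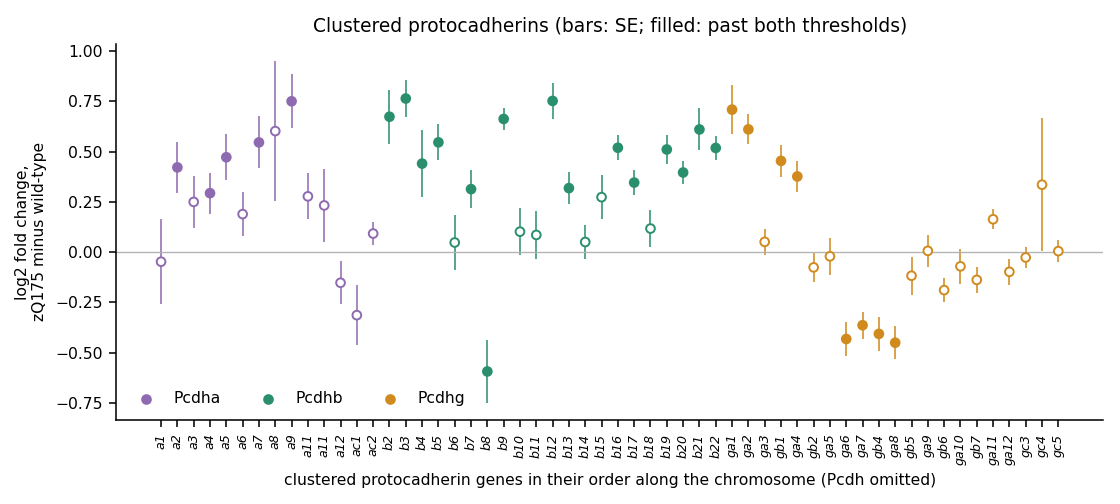
Log2 fold change (vertical axis, zQ175 minus wild-type) of the 56 clustered protocadherin genes in chromosomal order, coloured by cluster, with standard errors as bars and filled points for genes past both thresholds. The β genes lie mostly above 0, and 4 neighbouring γ genes lie below it. The label a11 stands at 2 places because a pair of gene identifiers carries the symbol Pcdha11.

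Of 27 Polycomb group genes, which keep developmental genes silent, 3 were raised (11.1%) and none lowered, against 4.7% and 6.89% of all tested genes. The median log2 fold change of the list was 0.03 and changed sign over the alternatives (-0.01 to 0.11). Sfmbt2 (chromosome 2, from 10370510 to 10595253), which binds methylated histones, ranged from 2.27 to 3.78 CPM in wild-type mice (median 2.51) and from 6.81 to 10.01 CPM in zQ175 mice (median 7.58). All zQ175 mice were above all wild-type mice, a 3.01-fold rise (log2 fold change 1.59, SE 0.10, adjusted p = 6.74e-15). Cbx8, a chromodomain subunit of Polycomb complexes, rose from a median of 10.5 to 15.8 CPM (log2 fold change 0.67, SE 0.08, adjusted p = 3.21e-08), whereas the methyltransferase gene Ezh2 had medians of 8.22 and 7.25 CPM (log2 fold change -0.09, SE 0.10, adjusted p = 0.552). Of 78 histone and DNA modifying enzymes 3 were raised and 3 lowered, and Kdm6b, which removes the Polycomb mark on histone H3, was among the raised (log2 fold change 0.36, SE 0.07, adjusted p = 0.000246).

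The transcription factor genes Wt1 and Onecut1 were almost silent in wild-type striatum. Wt1 had 0 to 4 reads per wild-type mouse, 12 in all with 2 mice at 0, and 26 to 50 reads per zQ175 mouse, 290 in all. Onecut1 had 0 to 7 reads per wild-type mouse, 13 in all with 5 mice at 0, and 17 to 57 per zQ175 mouse, 282 in all. Every zQ175 mouse was above every wild-type mouse for both genes (adjusted p = 4.1e-12 for Wt1 and 1.2e-10 for Onecut1 in edgeR's quasi-likelihood test). Their wild-type counts were too low to pass the filter on low counts, so both were tested only through groups with more reads. The filter thus set the direction in advance, and no conclusion is drawn from the adjusted p or the lack of overlap. Their fitted fold changes depend on the prior count and are not given.

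Among abundant genes Syp, the synaptic vesicle protein synaptophysin, ranged from 499 to 727 CPM in wild-type mice (median 634) and from 788 to 921 CPM in zQ175 mice (median 874), without overlap (log2 fold change 0.49, SE 0.07, adjusted p = 7.22e-07). Syp was 1 of 3 raised genes (11.5%) among 26 of the vesicle release machinery, of which 1 was lowered (3.85%). Of all tested genes 4.7% were raised and 6.89% lowered. In that list 2 were raised and 2 lowered without the mice of high Ttr, and 2 and 1 without those of low Slc17a7. In males only the counts were 2 and 1, and in females only 5 and 0. The lowest zQ175 mouse for Syp was that of low Slc17a7, and the part of cortical tissue was not tested. Polr2a, the largest subunit of RNA polymerase II, ranged from 70.8 to 84.4 CPM in wild-type mice (median 79.7) and from 111 to 129.6 CPM in zQ175 mice (median 120.2). The groups were apart (log2 fold change 0.61, SE 0.04, adjusted p = 2.81e-13). Gng3, a G protein γ subunit of neurons, rose and the striatal γ subunit Gng7 fell, with log2 fold changes of 0.62 and -0.35. Vill, which encodes a villin-like actin-binding protein, ranged from 2.68 to 3.90 CPM in wild-type mice (median 3.13) and from 5.90 to 8.48 CPM in zQ175 mice (median 7.51), a 2.3-fold rise without overlap (adjusted p = 8.88e-12).

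Several of the decreases with the smallest adjusted p lay outside the marker lists. Ddit4l (chromosome 3, from 137621612 to 137628333), an inhibitor of the growth kinase mTOR, ranged from 19.1 to 28.8 CPM in wild-type mice (median 24.8) and from 4.72 to 6.30 CPM in zQ175 mice (median 5.70). The groups were far apart, a 4.23-fold decrease (log2 fold change -2.08, SE 0.08, adjusted p = 2.41e-20). Mafa, a transcription factor best known from the insulin-producing cells of the pancreas, ranged from 8.96 to 14.8 CPM in wild-type mice (median 12.2) and from 1.18 to 2.21 CPM in zQ175 mice (median 1.76), a 7.07-fold decrease (log2 fold change -2.82, SE 0.13, adjusted p = 3.74e-19). Neto2, an auxiliary subunit of kainate receptors, fell from a median of 184 to 87.1 CPM (log2 fold change -1.09, SE 0.06, adjusted p = 5.85e-17), and Gsg1l, an auxiliary subunit of AMPA receptors, from 174 to 102 CPM (log2 fold change -0.82, SE 0.04, adjusted p = 5.04e-17). Hrk, a BH3-only activator of cell death, fell from 55.2 to 22.3 CPM (log2 fold change -1.26, SE 0.07, adjusted p = 2.3e-16). Each was lower in all zQ175 mice than in any wild-type mouse. Of 280 solute carriers 25 were lowered (8.93%) and 19 raised (6.79%), against 6.89% and 4.7% of all tested genes. Slc4a11, the most lowered of them, ranged from 4.99 to 9.75 CPM in wild-type mice (median 6.63) and from 1.04 to 2.26 CPM in zQ175 mice (median 1.41), without overlap (log2 fold change -2.15, SE 0.16, adjusted p = 3.59e-13).

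**Figure D5:**
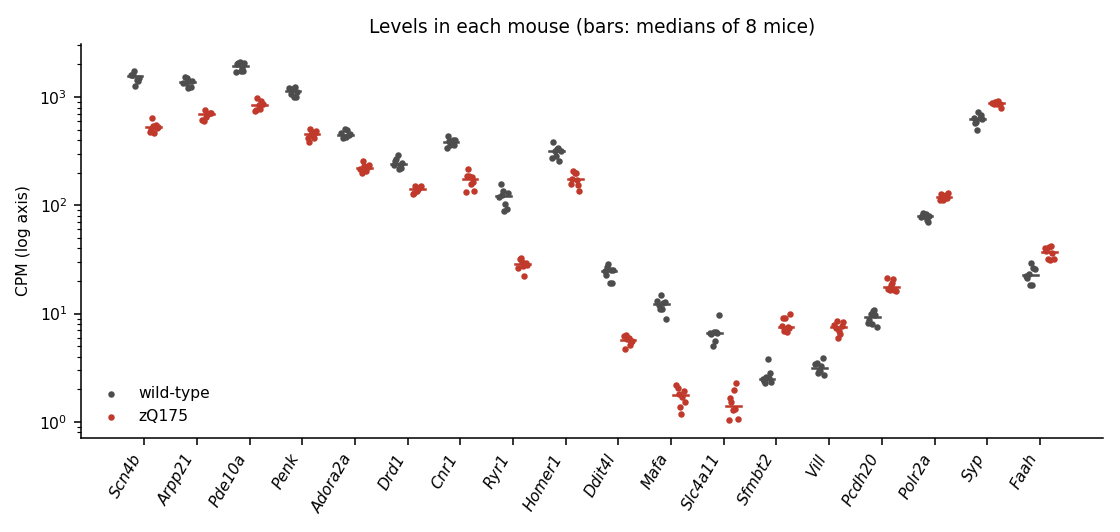
Level of 18 genes in each mouse (vertical axis, CPM on a log scale), with wild-type mice in grey, zQ175 mice in red and bars at the medians of 8 mice. For every gene shown the groups do not overlap.

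Many families held few or no calls, against 4.7% raised and 6.89% lowered of all tested genes. Of 83 nuclear genes of oxidative phosphorylation 1 was raised and 1 lowered, and none of the 13 mitochondrial genes was called. Of 77 cytosolic ribosomal protein genes 1 was lowered, and none of 75 mitochondrial ribosomal protein genes was called. None was called among 24 lysosomal genes, 24 genes of MHC class I and the interferon response, 19 of cholesterol synthesis, 18 cytosolic tRNA synthetases and 7 CCT chaperonin subunits. Of 46 proteasome subunits 2 were raised, Psme1 (log2 fold change 0.43, SE 0.07, adjusted p = 7.06e-06) and the immunoproteasome subunit Psmb10 (log2 fold change 0.42, SE 0.10, adjusted p = 0.00108), the latter not past the thresholds in males alone. No Hox gene of the 39 in the table had reads enough to be tested.

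The effect was measured a second time in mice without Msh3, in which 8 zQ175:Msh3-/- mice were set against 8 Msh3-/- mice. The zQ175:Msh3-/- group held 5 males and 3 females and the Msh3-/- group 4 of each, so sex was not balanced, and with sex in the model 1780 genes were called. No mouse entered both comparisons, although the 4 genotypes shared an estimate of the spread. There 4.68% of tested genes (778) were raised and 5.96% (990) lowered, 10.6% (1768) in all, and 1211 genes were called in the same direction in both comparisons. All 19 shared spiny neuron markers were lowered again (median -0.57). Of the indirect pathway markers 5 of 9 were lowered (median -0.76), of the direct pathway markers 3 of 10 were lowered and 1 raised (median -0.13), and of the clustered protocadherins 29 of 56 were raised and 3 lowered (median 0.33). The endothelial count was 3 of 16, with a median of -0.19, and the cholinergic count was 5 of 7, with a median of -0.36. Whether these counts differ between the Msh3 genotypes was not tested.

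Males and females were compared by the difference of the zQ175 effect between sexes. No gene passed the thresholds for that difference in edgeR's quasi-likelihood test, with 706 of 16610 genes at an unadjusted p under 0.05, a smallest unadjusted p of 0.000241, in Clmp, which encodes an adhesion protein, and a smallest adjusted p of 0.982. DESeq2 also called 0 genes, with 637 at an unadjusted p under 0.05, and a fit of only the zQ175 and wild-type mice called 0, with 753. With 4 mice of each sex per group, 1180 genes were called in males and 1819 in females, and all 19 shared spiny neuron markers were lowered in each sex. The cortical markers had the medians of 1.19 in females and 0.08 in males given above, and their part in these counts was not tested.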

How the data were processed

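The authors extracted RNA from dissected striata with a Qiagen RNeasy kit, made polyA-selected libraries and sequenced them as 2x150 bp paired ends. The authors deposited counts of reads per gene, without normalization, for 54532 genes, and a table named as FPKM whose columns each sum to 1000000, so those deposited values are on the TPM scale. The submitters' processing notes name the genome build GRCm38.p6, and the aligner, counting program, strand setting and annotation are not given in the sources used here, so reads of overlapping genes may be shared. Gene names and positions are from GENCODE M21 on GRCm38.

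Counts of the 32 mice were tested with edgeR 4.0.16 in R 4.3.3 (quasi-likelihood, robust, TMM normalization, filterByExpr) in a model of 4 genotypes, with Benjamini-Hochberg adjustment over 16610 genes. The common biological coefficient of variation was 0.0985. No 2 mice of a genotype agreed within sampling noise (chi-square per degree of freedom at least 4.47 in 56 pairs), and p-values measure the spread between these mice. On simulated data of 16610 genes for this comparison, edgeR recovered 89% of genes changed 1.5-fold and 96% of those changed 2-fold, with 2 false calls. The changed genes, 100 at each fold, were not of low count, and as many rose as fell. Tissue from outside the striatum was not simulated, so these figures do not cover low genes or the larger, uneven set of changes here. Alternatives used DESeq2 1.42.0, limma 3.58.1 on log2(TPM + 0.1) or log2(TPM + 1), which understates the change of low genes, other filters, thresholds, covariates and sets of mice.

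The 80 gene lists (14 of cell classes, 4 of neighbouring tissues, 62 of families) were chosen with earlier results of these data known and carry no test of their own. Genes named are the defining genes of each list, up to 3 raised and 3 lowered genes per list with the largest change, the 10 raised and 10 lowered protein-coding genes with the smallest adjusted p, up to 5 from the sex comparison, Msh3 and Htt. Some genes that this rule picks are not reported here. Python 3.11.15 with pandas 2.3.3, numpy 2.4.6 and matplotlib 3.10.9 made the summaries and figures.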

Additional observations from a re-analysis of the deposited data

Results flagged for a closer look

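In 240 groups of 8 mice (each named gene and each summed cell class list in each genotype), 16 (6.67%) held a mouse whose gap to its nearest neighbour, as a share of the group's range, was above Dixon's 95% critical value, and chance flags about 1 in 20 groups. Among genes in wild-type mice, the share was 0.554 for the highest mouse in Id4 (female replicate 4), 0.626 for the highest in Kremen1 (male replicate 4), 0.545 for the highest in Slc4a11 (male replicate 4), 0.574 for the highest in Sfmbt2 (male replicate 1), 0.607 for the highest in Tagln (female replicate 2), and, for female replicate 1 as the lowest mouse, 0.53 in Mbp and 0.74 in Pcdhb12. In zQ175 mice, female replicate 1 was the lowest in Oprm1 (0.55) and in Rgs19 (0.573). Male replicate 4 was the lowest in Slc17a7 (0.794), in the summed cortical list (0.754) and in Syp (0.537), and male replicate 3 was the highest in Ttr (0.617) and in the summed choroid plexus list (0.637). Wild-type male replicate 1 was the highest in the summed striosome list (0.624) and in that of eccentric spiny neurons (0.597). Among the called genes here, Id4, Kremen1, Slc4a11, Sfmbt2, Tagln, Pcdhb12, Rgs19 and Syp kept their calls without any single mouse.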

How the results depend on the processing

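The 1925 calls (781 raised, 1144 lowered) became 538 (179 and 359) at a fold change of at least 1.5, 4398 (2153 and 2245) by adjusted p alone and 1180 (426 and 754) in males only, beside 1819 (787 and 1032) in females only. With limma, which took the TPM values without normalization for library composition, the raised genes became 1316 on log2(TPM + 0.1) and 1251 without the filter on low values. The median log2 fold change of the genes in the first of these fits was 0.07, against 0.01 on counts. The cause of these changes was not tested. The totals under DESeq2, RLE size factors, other count filters, a fit of the 2 groups alone, sex in the model, females only and log2(TPM + 1) stayed within 1.5 times, as did those without each mouse in turn (1786 to 2040). The replicate numbers did not pair the mice (correlation of deviations -0.206 to 0.293 between same-numbered mice, 3 of 8 best with their own number), and with the replicate block 1931 genes were called. Leaving out the mice of high Ttr or low Slc17a7 was chosen after seeing the data. Of 85 named genes that were called, 78 kept the call in every alternative that gave a value, other thresholds not counted (30, and 29 for Wt1 and Onecut1), 7 lost it in at least 1, and none changed direction. Those lost were Htt and Slc1a2 on the TPM scale, Faah, Pcdhb8, Pcdhga8, Pcdhgb4 and Psmb10 in males only, and Pcdhb8 also without the mice of low Slc17a7, and Clmp passed in males only. Many of the 85 genes were named for a large change or a small adjusted p in the main fit. The alternatives used the same mice or subsets of them. Keeping a call was thus partly set in advance, and no conclusion is drawn from the count. Of 2370 list medians under alternatives, 208 moved by more than the wild-type spread. Depth limits genes such as Wt1, at 12 reads over all wild-type mice.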

Other observations

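Gene symbols were also grouped by the letters before their first digit, over 171 stems with at least 10 tested genes, with no test. Raised genes were most frequent for Pcdhb (66.7%), Pcdha (41.7%) and Pcdh (36.4%), against 4.7% of all tested genes, and lowered genes for Camk (40%) and Rgs (38.9%), against 6.89%.

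The share of lowered genes varied with level and with length, though not in steady order with level. Of 1725 genes with a mean over 100 TPM, 11.8% were lowered and 1.8% raised. Of 8110 genes over 10 and up to 100 TPM, 5.75% were lowered and 3.56% raised. Of 5383 genes over 1 and up to 10 TPM, 7.71% were lowered and 7.43% raised, and of 1392 of up to 1 TPM, 4.31% and 4.38%. Of 2271 protein-coding genes longer than 100 kb, 10.4% were lowered and 5.06% raised, and of 3364 of up to 10 kb, 5.83% and 5.65%. By chromosome, the X held 7.68% raised and 3.66% lowered of 547 genes, and chromosome 18, which carries the clustered protocadherins, 10.2% raised and 8.46% lowered of 449. Of 513 lincRNA genes 7.99% were raised and 9.16% lowered. Within 2 Mb of Htt, 3 of 61 genes were raised (4.92%) and 6 lowered (9.84%), against 4.7% and 6.89% of all tested genes.

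Prl, the prolactin gene of the pituitary, was at 37.8 CPM in wild-type female replicate 3 and at 4.62 CPM or less in the other 15 mice, a value seen while the libraries were checked.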
